A study of Mus musculus with 5 samples.

Results

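Cycling tumor cells are the cells of mouse islet tumors that were caught expressing genes of DNA synthesis and division. A tumor cell was taken as cycling when it held at least 1 UMI (unique molecular identifier, 1 captured transcript) of 2 or more of 11 cell cycle genes, namely Mki67, Top2a, Cdk1, Birc5, Ube2c, Cenpf, Ccnb1, Ccnb2, Ccna2, Nusap1 and Tpx2. The rule found 299 of the 2467 tumor cells (12.12%), in a series of 6645 cells. Library A gave 59 of 513 cells, library B 85 of 855 and library C 155 of 1099. The cells were thus chosen by their measured values of these 11 genes, which are described here and not tested.

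The series profiled single cells of mice that lack the glucagon receptor gene Gcgr, with the Chromium 3' version 2 chemistry. All 3 tumor libraries carry the homozygous Gcgr knockout, and 2 islet libraries, 1 from a heterozygous and 1 from a homozygous knockout, serve here as background. No treatment was given, and age, sex and strain are not given in the labels used here. The tumor table names its libraries but not which tumor sample each one is, so they are called A, B and C, and p-values measure the spread between these 3 libraries only. Gcgr itself had 0, 1 and 3 UMIs over all cells of A, B and C. Total UMIs were 10508498, 22893238 and 22161240, with a median of 19141, 25354.5 and 18867.5 exonic UMIs per kept cell. No cell name was shared between libraries, although these names are not the sequence barcodes. Scrublet, a doublet caller, marked 42 tumor cells, 5 of them cycling, and these were left out of everything below.

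A dividing cell copies its DNA in S phase and separates the copies in mitosis. E2F factors switch on replication genes at the start of S phase, and the mitotic genes follow under the DREAM and B-MYB complexes, which act at CHR elements beside CCAAT boxes close to the start of transcription. Cyclin-dependent kinases drive the steps, and inhibitors such as p21, the product of Cdkn1a and a target of p53, hold them back. Adult alpha cells, which make glucagon from Gcg, rarely divide, but loss of the glucagon receptor is known for raising their number.

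The promoters of 4 genes that stood far higher in the cycling cells show these elements. Each line gives the 250 bases before the transcription start, from RefSeq on the build GRCm38.p6, read 5′ to 3′ on the gene's strand. Capitals mark the CHR element TTTGAA, the CCAAT box and, in Mcm6, the E2F element TTTGGCGC, each on either strand. Cdc20 activates the anaphase-promoting complex, Ckap2l and Hmmr bind the spindle, and Mcm6 is a subunit of the replicative helicase.
Cdc20, chr4:118437344-118437593, minus strand: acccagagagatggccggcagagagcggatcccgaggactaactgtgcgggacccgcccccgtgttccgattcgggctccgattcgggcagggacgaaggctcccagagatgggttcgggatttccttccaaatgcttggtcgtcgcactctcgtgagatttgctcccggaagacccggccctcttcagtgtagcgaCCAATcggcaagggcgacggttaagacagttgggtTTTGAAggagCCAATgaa
Ckap2l, chr2:129297213-129297462, minus strand: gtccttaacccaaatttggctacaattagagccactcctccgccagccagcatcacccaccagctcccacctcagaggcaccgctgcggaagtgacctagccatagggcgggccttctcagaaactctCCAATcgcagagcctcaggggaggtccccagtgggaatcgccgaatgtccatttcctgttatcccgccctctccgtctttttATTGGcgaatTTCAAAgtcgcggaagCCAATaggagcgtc
Hmmr, chr11:40733438-40733687, minus strand: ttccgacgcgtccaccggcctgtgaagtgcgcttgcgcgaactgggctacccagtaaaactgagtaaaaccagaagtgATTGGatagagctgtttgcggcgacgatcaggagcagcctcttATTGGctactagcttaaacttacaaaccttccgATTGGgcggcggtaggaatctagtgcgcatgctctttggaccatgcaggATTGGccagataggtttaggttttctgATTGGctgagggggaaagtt
Mcm6, chr1:128359706-128359955, minus strand: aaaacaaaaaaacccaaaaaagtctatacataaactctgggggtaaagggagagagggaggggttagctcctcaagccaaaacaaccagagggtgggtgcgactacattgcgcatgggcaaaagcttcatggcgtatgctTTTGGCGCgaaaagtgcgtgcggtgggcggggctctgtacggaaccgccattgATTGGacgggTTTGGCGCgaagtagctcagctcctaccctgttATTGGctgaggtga

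Cdc20 held a CHR element between CCAAT boxes that begin 53 and 8 bases before the start. Ckap2l held CCAAT boxes at 122, 40 and 14 bases and a CHR element between the last pair. Hmmr held 5 CCAAT boxes and no TTTGAA in this window, and Mcm6 held E2F elements at 110 and 47 bases. Other genes that rose differed from these examples. Cenpa, Cdca3, Cenpe and Cdca8 held CCAAT boxes but no TTTGAA, and Pcna held a CCAAT box but no E2F element. The search covered TTTGAA for CHR, CCAAT, and TTTGGCGC, TTTCCCGC or TTTGGCGG for E2F, on both strands, and no motif contains another. Among all 32851 RefSeq promoters of this length 16% held a CHR element, 33.8% a CCAAT box and 1.73% an E2F element. Among 73 promoters of mitotic kinase, spindle and centromere genes that rose in the cycling cells, of which 65 of 80 genes were matched, the shares were 23.3%, 72.6% and 4.11%. Among 26 promoters of replication genes that rose, from 22 of 28 genes, they were 15.4%, 65.4% and 26.9%. The 10085 promoters of tested genes held them in 10.2%, 35.5% and 3.16%. A match describes these letters and shows no binding.

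Of the 294 cycling cells kept, 118 held exactly 2 of the 11 genes, 52 held 3 or 4 and 124 held 5 or more. All 11 were seen in 33 cells, 4 in A, 11 in B and 18 in C. Just outside the rule were 599 tumor cells with exactly 1 of the genes, and 1532 held none. Ccnb2, a mitotic cyclin, was found in 61.4% of cycling cells of A, 72.9% of B and 52.6% of C. Mki67, the proliferation antigen Ki-67, was found in 57.9%, 64.7% and 35.5%. Top2a, which untangles DNA, was found in 57.9%, 38.8% and 47.4%. Cdk1, the mitotic kinase, was found in 45.6%, 34.1% and 52.0%, and Birc5, a subunit of the chromosomal passenger complex, in 47.4%, 56.5% and 47.4%. Ccnb1 was the least detected of the 11, at 22.8%, 21.2% and 21.7%. The kinetochore gene Cenpf behaved differently in C near the threshold. It was found in 47.1% of the C cells with exactly 2 of the genes, against 9.1% in A and 21.4% in B, and in 27.3% of C cells with exactly 1, against 5.0% and 12.7%.

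The share of cycling cells moves with depth, so each cell was also thinned to 5000 UMIs, which left out 16, 4 and 16 shallower cells. At that depth 6.26% of cells in A were cycling (30 of 479, exact 95% interval 4.27 to 8.82). The share was 5.34% in B (45 of 842, 3.92 to 7.09) and 5.99% in C (64 of 1068, 4.65 to 7.59). The mean was 5.87% ± 0.47 (SD, n = 3), and the intervals, which cover counting error only, overlapped for the 3 libraries. Without thinning the shares were 11.5%, 10.05% and 14.02%. In the islets at the same depth 0.766% of heterozygous alpha cells (2 of 261, 0.0929 to 2.74) and 0.560% of homozygous alpha cells (8 of 1428, 0.242 to 1.10) met the rule, and unthinned 0.649% and 0.786%. Beta cells gave the background: 0.292% (2 of 684, 0.0354 to 1.05; 0.725% unthinned, median depth 26200 UMIs) in the heterozygous islets. In the homozygous islets it was 0 of 424 beta cells (median depth 11312 UMIs), with an exact upper limit of 0.866%; a count of 0, taken as under 3 cells, allows up to 0.708%. Alpha cell intervals overlapped those of beta cells, and each tumor interval lay above them, but with 1 islet library per genotype the difference was not tested.

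**Figure D1:**
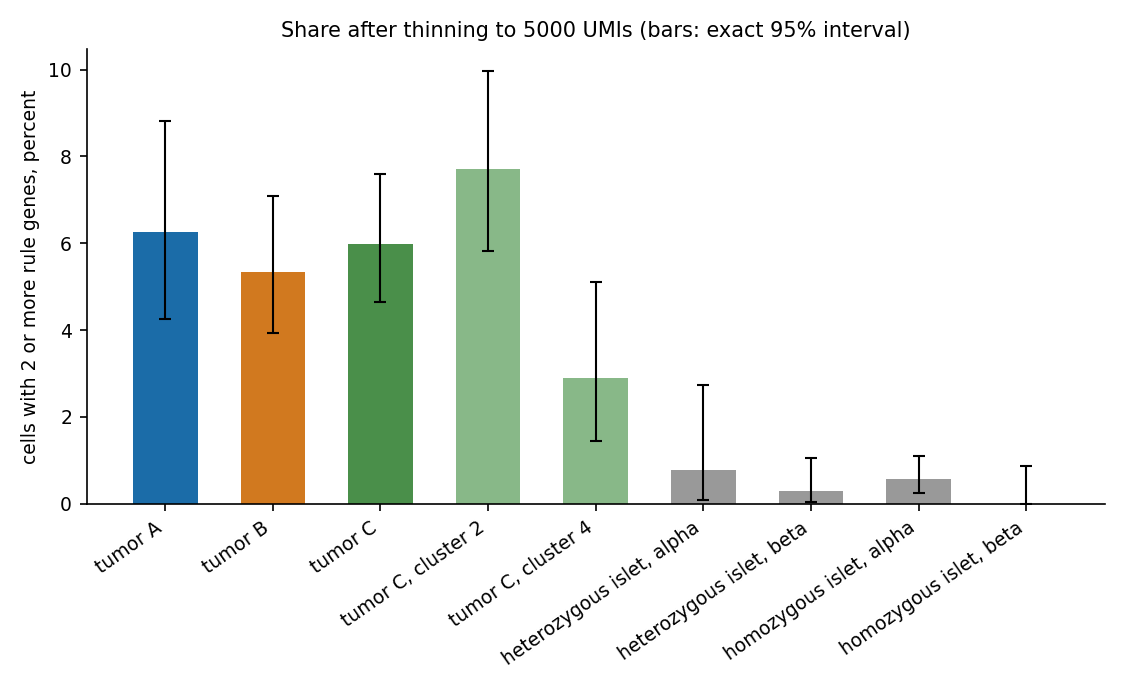
Percent of cells with 2 or more of the 11 genes after thinning to 5000 UMIs, for each tumor library, for clusters 2 and 4 of tumor library C, and for alpha and beta cells of the islet libraries. Lines are exact 95% binomial intervals. The 3 tumor libraries sit between 5.34% and 6.26%, and the islet cells below 1%.

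The authors' clusters follow the libraries closely. Cluster 3 held 56 of the 57 cycling cells of A, and cluster 1 held 85 of 85 in B. Library C was split, with 103 cycling cells (67.8%) in cluster 2 and 49 (32.2%) in cluster 4, close to the 67.2% and 32.5% of its cells with none of the 11 genes. Of the 57 cells in C with 5 or more genes, 51 (89.5%) lay in cluster 2 and 6 in cluster 4. Thinned to 5000 UMIs, 7.71% of cluster 2 (53 of 687, 5.83 to 9.97) and 2.89% of cluster 4 (11 of 381, 1.45 to 5.11) were cycling. Unthinned, the shares were 14.8% and 12.7%. At 10000 UMIs they were 10.8% (8.60 to 13.4) and 6.32% (4.05 to 9.33). The intervals did not overlap at 5000 UMIs and overlapped at 10000. With 3 or more genes required the shares were 10.0% and 3.64% unthinned. Both clusters come from 1 library and the difference has no replicate check.

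Genes outside the rule were far higher in cells with many of the rule genes. The mean summed level of the DNA replication list, in UMIs per 1000000 (CPM), was 331, 377, 423, 895 and 1300 in A for cells with 0, 1, 2, 3 to 4, and 5 or more of the 11 genes. In B it was 276, 277, 373, 500 and 1439, and in C 333.5, 335, 319, 918 and 1941, so that the C cells that just met the rule were not above those with none. The mitotic kinase and checkpoint list went from 161 to 218 in A between 0 and 2 genes and reached 1876 at 5 or more. In C it went from 185 to 201 and reached 2555. Cells with exactly 2 genes were thus nearer to cells with 0 or 1 gene than to cells with 5 or more, on both lists and in each library. The replication-dependent histones, which package newly made DNA, were at 674 with 0 genes, 958 with 1, 2247 with 2, 3712 with 3 or 4 and 3093 with 5 or more in B. In C they were at 616, 618, 808, 1391 and 1123. In A they were at 423, 448, 561, 299 and 531, where the 299 rests on 4 cells. Much of these sums is 1 gene, Hist1h2bc. In the cycling cells and their depth-matched cells it averaged 1814 and 324 CPM in B, 695 and 386.5 in C, and 294 and 199 in A. The sums therefore do not describe the histones as a group. Transcripts of these histones mostly lack a poly(A) tail, so this chemistry captures few of them.

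**Figure D2:**
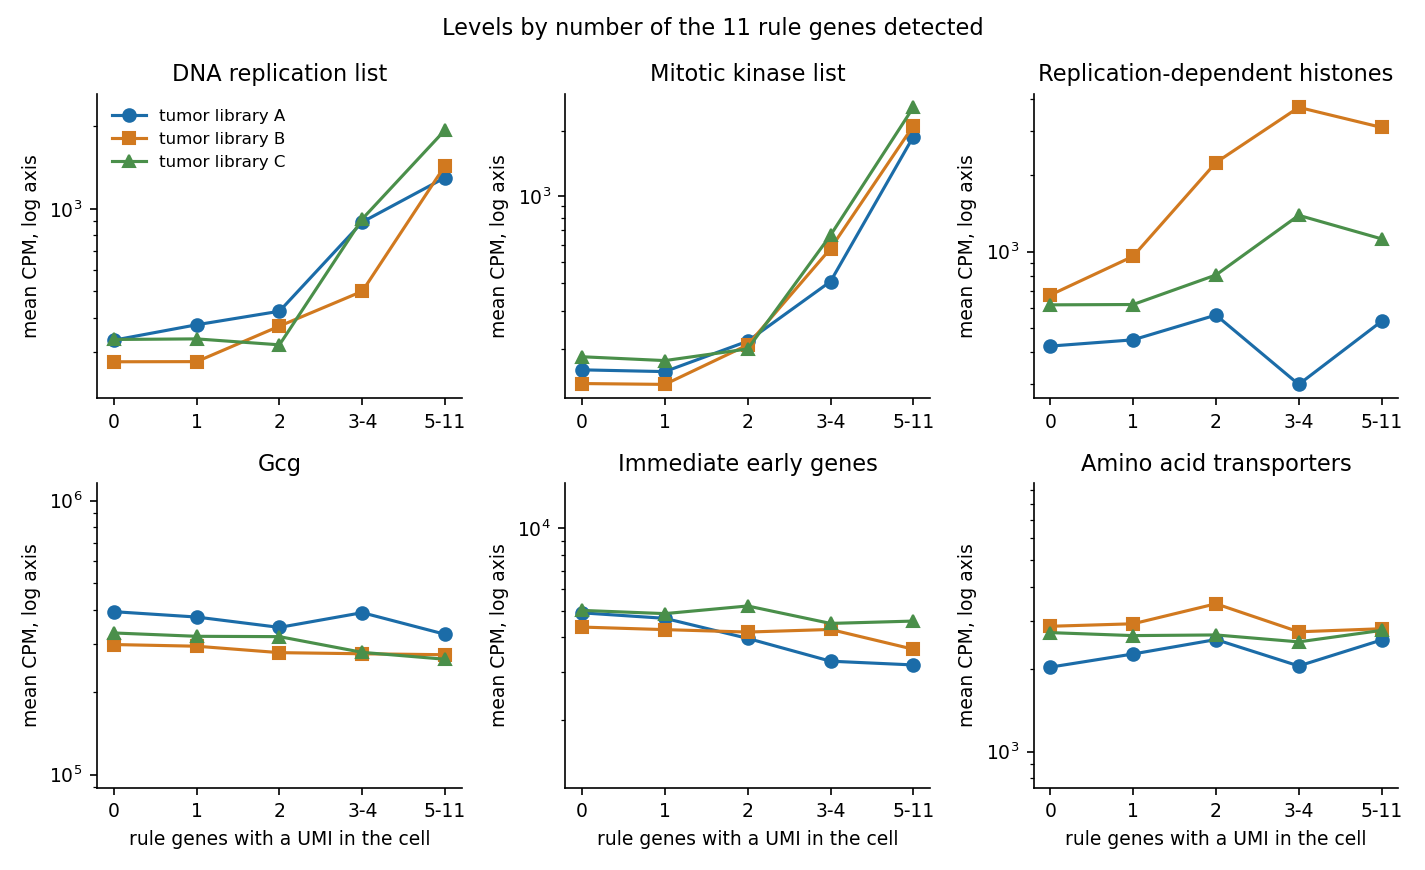
Mean level per cell (CPM, log axis) of 6 gene groups against the number of rule genes detected, 1 line for each tumor library. Replication and mitotic kinase genes climb above 2 detected genes in each library, histones are highest at 3 or 4 genes in B and C, and Gcg is lower at the last point than at the first in each.

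Single cells showed the same step. Mitosis genes (the kinase, spindle and centromere lists summed, without Stmn1, Ran and 4 tubulin genes) had a median of 4771 CPM in the A cells with 5 or more rule genes against 678.5 in the cells with none. The medians were 6029 against 809 in B and 6531 against 774 in C. Replication genes here are the DNA replication and nucleotide synthesis lists summed. In cells with none, nucleotide synthesis averaged 774, 1241 and 975 CPM in A, B and C. The DNA replication list averaged 331, 276 and 333.5 in the same cells. Most of this sum is therefore nucleotide synthesis, and it does not stand for DNA replication alone. Of the 124 cells with 5 or more rule genes, 88 lay above the 95th percentile of the cells with none for both replication and mitosis genes, 33 for mitosis only, 1 for replication only and 2 for neither. Of the 118 cells with exactly 2, 5 lay above both, 13 above mitosis only, 2 above replication only and 98 above neither. Over all members 115 of 294 lay above neither line, 16 of 57 in A, 24 of 85 in B and 75 of 152 in C. By construction about 5% of cells with none lie above each line. The rule genes act mainly in G2 and mitosis, and 17 of 1532 cells with none of them reached the median replication level of the cells with 5 or more in their library.

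**Figure D3:**
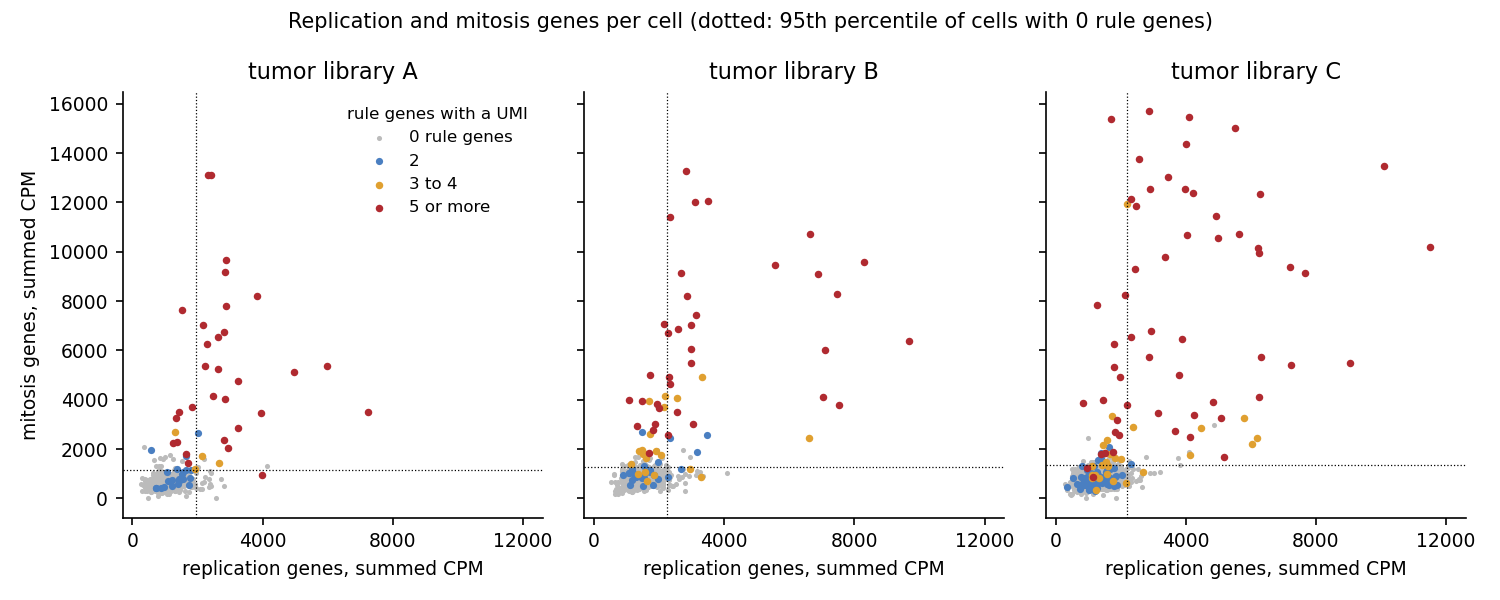
Summed CPM of mitosis genes (vertical) against replication genes (horizontal) in each cell, by library, coloured by the number of rule genes detected. Replication genes are the DNA replication and nucleotide synthesis lists summed. Dotted lines are the 95th percentile of cells with 0 rule genes. Most of the 124 cells with 5 or more lie above both lines, and 98 of the 118 cells with exactly 2 lie below both.

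For the comparison across genes, each cycling cell was matched to 2 cells of its library with none of the 11 genes and nearly the same exonic total. This gave 294 cycling and 587 matched cells. Median totals were 20982 and 20948 in A, 25860 and 25836 in B, and 19629.5 and 19613 in C. At equal depth cycling cells still held more genes, 4395 against 3968 in A, 4947 against 4634 in B and 4462.5 against 4171 in C. The mitochondrial share of UMIs was 1.57% against 1.26%, 1.24% against 1.22%, and 2.21% against 2.07%. Of 10080 genes tested with limma (library as a block, Benjamini-Hochberg adjusted p under 0.05), 677 were higher (6.72%) and 39 lower (0.387%). The cycling values lay above all matched values for 10.5% of genes and below all of them for 1.52%. TMM scaling moved the median log2 difference of all genes from 0.094 to -0.035 and called 426 higher and 134 lower, so that 76.1% of its calls were higher against 94.6%. Log2 differences below are therefore given relative to the median of all genes, on the log2(CPM + 1) scale, with the standard error of the fit. They understate changes of genes near 1 CPM. The limma p-values beside them test the difference before that median is subtracted.

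Of the members of the cell cycle lists that passed the filter on low values, 164 of 208 rose and 0 fell. The filter takes the mean over both classes, so members that are near 0 in matched cells passed only through the cycling cells and had to differ. On the matched cells alone 108 of the 208 would have passed, and 65 of these rose and 0 fell. Such genes also vary together with the 11 genes that chose the cells. The counts, the list medians and the p-values of single members therefore describe the cells and support nothing on their own. Cenpa, Cdca3 and 2810417H13Rik, given below, averaged 1.30, 1.39 and 0.82 CPM in matched cells and passed only through the cycling cells. Over all 10080 genes tested 677 rose (6.72%), and 513 of these lay outside the cycle lists. The 513 include spindle genes such as Haus5 (1.68) and Haus4 (1.54), and Cdkn3 (4.75). They were not tested as a group.

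**Figure D4:**
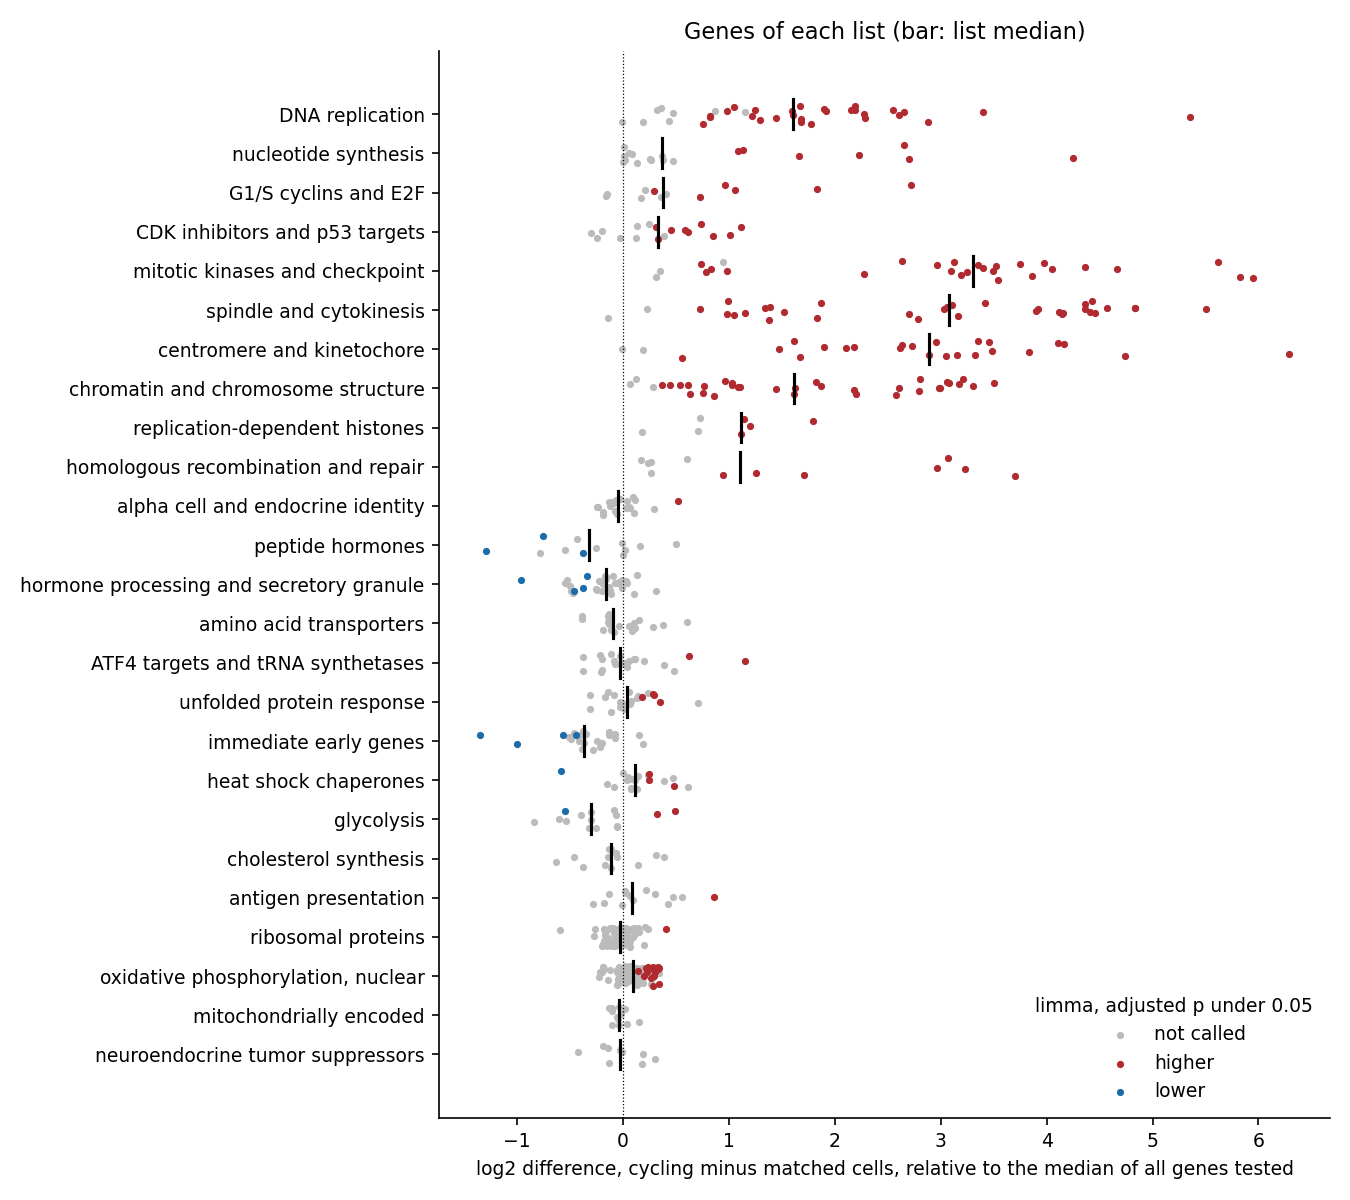
Log2 difference of cycling minus matched cells, relative to the median of all genes tested, for each gene of each list, with the list's median as a bar. Red genes rose and blue genes fell by limma, and the lists of mitosis and replication stand furthest to the right.

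Of the DNA replication list (45 genes) 36 passed the filter, 20 of them on the matched cells alone. Of the 36, 28 rose and 0 fell, with a median log2 difference of 1.60 against 0 for all genes. The highest was 2810417H13Rik, which encodes the PCNA-associated factor Pclaf. It stood at 48.95, 72.1 and 117 CPM in cycling cells of A, B and C and at 1.62, 0.178 and 0.663 in matched cells, a difference of 5.36 ± 0.32 (SE, n = 3, adjusted p = 5.72e-08). Pcna, the sliding clamp of the polymerases, stood at 33.2, 24.5 and 27.1 CPM against 11.2, 5.79 and 6.36, without overlap, a difference of 1.68 ± 0.20 (adjusted p = 3.56e-05). Mcm6 stood at 44.1, 23.75 and 25.6 CPM against 9.77, 8.21 and 6.57 (1.68 ± 0.20, adjusted p = 3.69e-05). Mcm2 of the same helicase differed by 1.44 and Clspn, a checkpoint mediator, by 3.40. Cells without the 11 genes thus still held some Mcm and Pcna transcripts, while 2810417H13Rik was near 0 in them. Mcm4 (0.87) and Gins1 (-0.01) were among the 8 that did not pass.

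Members of the nucleotide synthesis list differed, and its pathways were not compared by a test. Of 19 measured genes 7 rose (3 of the 15 that passed on matched cells alone), among them Rrm2 (4.25), Rrm1 (2.70), Tyms (2.65), Dut (1.66), Dtymk (1.13) and Dctpp1, which make or clean deoxynucleotides. Rrm2, the regulated subunit of ribonucleotide reductase, stood at 36.1, 54.2 and 43.4 CPM against 1.798, 0.765 and 1.195. The general purine and pyrimidine genes Ppat (0.01), Gart (0.09), Paics (0.13) and Umps (0.26) did not pass, and the list's median was 0.37.

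Of 12 measured cyclin, E2F and related G1/S genes 6 rose (50%, beside 6.72% of all genes), with a median of 0.38. On the matched cells alone 11 passed the filter, and 5 of these rose. Foxm1, at a mean of 0.66 CPM in matched cells, passed only through the cycling cells. With TMM 4 of the 6 remained. Foxm1, the factor that drives late cycle genes, differed by 2.72, Ccne2 (cyclin E2) by 1.83, Dnmt1, the maintenance DNA methyltransferase, by 1.06, E2f1 by 0.97 and E2f2 by 0.72. Ccne2 stood at 24.7, 22.75 and 35.3 CPM against 5.72, 5.65 and 8.07, with no overlap. The D cyclins did not pass, with Ccnd1 at -0.15 (adjusted p = 0.843) and Ccnd2 at -0.16 (adjusted p = 0.669). Cdk4, their partner kinase, stood at 118 against 87.2 CPM in A, 181.6 against 158.5 in B and 2643 against 1832 in C. Library C was far above A and B in both classes of cells. The difference of 0.29 ± 0.08 passed (adjusted p = 0.0103) but not with TMM (0.088) or without C (0.264).

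Of 17 measured inhibitors of the cycle and p53 targets 9 rose (52.9%, beside 6.72% of all genes) and 0 fell, with a median of 0.34. Cdkn1a (chr17:29090979-29100722, GRCm38.p6), which encodes p21, stood at 349, 256.5 and 281 CPM in cycling cells of A, B and C against 194.6, 78.0 and 164 in matched cells. The lowest cycling library lay above the highest matched one, and the difference was 1.01 ± 0.14 (adjusted p = 1.35e-04). By number of rule genes (0, 2, 3 to 4, and 5 or more) Cdkn1a was at 241, 216, 142 and 470 CPM in A, at 73.0, 135, 165 and 405 in B, and at 149, 261, 196 and 344 in C, so that in A the members with under 5 genes lay below the cells with none. In C, cells with 3 or more genes held 314 CPM against 124.5 in cells with none in cluster 2, and 206 against 194.7 in cluster 4. DESeq2 did not call Cdkn1a (0.278). Ccng1, a p53 target, differed by 0.85 (adjusted p = 2.52e-04) and Rps27l, a ribosomal protein gene that p53 induces, by 0.40 (adjusted p = 2.57e-04). The INK4 inhibitors Cdkn2d (1.11), Cdkn2a (0.61) and Cdkn2c (0.58) rose, along with Plk2 (0.74), Phlda3 (0.46) and Bax (0.31). Cdkn1b (0.39), Trp53 itself (0.12) and Gadd45a (-0.30) did not pass. With TMM 5 of the 9 remained, namely Cdkn1a, Cdkn2a, Cdkn2d, Ccng1 and Plk2, and DESeq2 called 1 member of the list. Cdkn2d, at 22.3, 46.0 and 86.3 CPM against 20.1, 14.9 and 22.4, was not called without C (0.205).

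Mdm2, the ligase that degrades p53, stood at 83.1 against 49.6 CPM in A, 53.9 against 46.3 in B and 2055 against 1628 in C. The difference of 0.33 ± 0.10 passed (adjusted p = 0.0209) but not with TMM (0.0992) or without C (0.214). Within C, cells of cluster 2 with 3 or more rule genes held 3094 CPM of Mdm2 and 4441 of Cdk4, against 2457 and 2665 in its cells with none. Cluster 4 held 296 and 291 in such cells against 165.8 and 213 in cells with none. The 14 cells of cluster 4 and 70 of cluster 2 behind these means were deeper than the cells with none, at 27156.5 and 21238.5 UMIs against 18575 and 17391.

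The mitotic lists moved furthest. Of 28 measured mitotic kinase and checkpoint genes (of 33; 8 passed on matched cells alone) 25 rose and 0 fell, with a median of 3.30. Cdca3, which triggers mitotic entry, differed by 5.95 ± 0.20 (adjusted p = 3.57e-10), the kinase Pbk by 5.83 and Cdc20 by 5.62 ± 0.25. Cdc20 stood at 124, 118 and 73.1 CPM against 1.14, 0.466 and 1.43. Aurka (3.98) and Plk1 (4.05), kinases of the spindle and centrosome, stood at 20.4 to 24.2 CPM in each cycling group and at or under 0.738 in each matched one. Bub3 rose by less, 0.74, and Wee1 (0.31), Pttg1 (0.35) and Pkmyt1 (0.94) did not pass.

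Of 34 measured spindle and cytokinesis genes (of 41; 11 on matched cells alone) 32 rose and 0 fell, with a median of 3.08. Hmmr stood at 82.4, 90.5 and 46.2 CPM against 0, 0.366 and 1.33 (5.50 ± 0.33). Stmn1, which destabilises microtubules, and Ckap2 both differed by 4.83, Ckap2l by 4.57 and Prc1, a bundler of the central spindle, by 4.46. Tubulins were abundant in both classes, and Tubb5 stood at 291, 341 and 456 CPM against 99.9, 127 and 123 (1.52 ± 0.10). Tuba1c (0.22) and Numa1 (-0.15) did not pass.

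Of 25 measured centromere and kinetochore genes (of 31; 7 on matched cells alone) 23 rose and 0 fell, with a median of 2.89. Cenpa (chr5:30666877-30674837), the histone variant that marks centromeres, had the largest difference of the named genes. It stood at 189, 203.5 and 175 CPM against 1.64, 0.811 and 1.46, a mean of 189 ± 14.1 against 1.30 ± 0.43 (SD, n = 3) and a difference of 6.29 ± 0.19 (adjusted p = 1.32e-10). Cenpe, a kinetochore motor, differed by 4.74, Casc5 (Knl1) by 4.16, Knstrn by 4.11 and Cenpm by 3.83. Zwint (-0.01) and Cenpj (0.19) did not pass.

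Of 35 measured genes of chromatin and chromosome structure (of 40; 26 on matched cells alone, 23 of which rose) 32 rose and 0 fell, with a median of 1.62. Hmgb2, a DNA-bending protein, stood at 165, 109.6 and 143 CPM against 12.1, 7.78 and 11.9 (3.51 ± 0.13, adjusted p = 7.94e-10). The condensin subunits Smc2 (3.21), Ncapg (3.30) and Ncapd2 (3.08) rose, as did the histone variant H2afz (2.57) and the lamin Lmnb1 (2.18). Among cohesin subunits Rad21 (1.03) and Smc1a (0.63) rose, while Smc3 was at 0.06 and did not pass.

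Of the 18 replication-dependent histones only 7 passed the filter on low values, 4 of them on the matched cells alone. Of the 7, 4 rose with limma and 0 with DESeq2. Of the 4 that passed on matched cells alone, 1 rose with limma. Hist1h2bc stood at 294, 1814 and 695 CPM against 199, 324 and 386.5, highest in B and overlapping between the classes (1.2 ± 0.24, adjusted p = 3.09e-03). Hist1h1d stood at 5.27, 83.2 and 5.98 CPM against 1.44, 6.31 and 3.07, a call that was lost without B. Of 28 recombination and repair genes 12 passed the filter, 6 of them on matched cells alone, and 7 of the 12 and 1 of the 6 rose. Neil3, a glycosylase active in S phase, differed by 3.70 and Bard1, the partner of Brca1, by 3.07, while Chek1 (0.24) and Msh6 (0.17) did not pass.

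**Figure D5:**
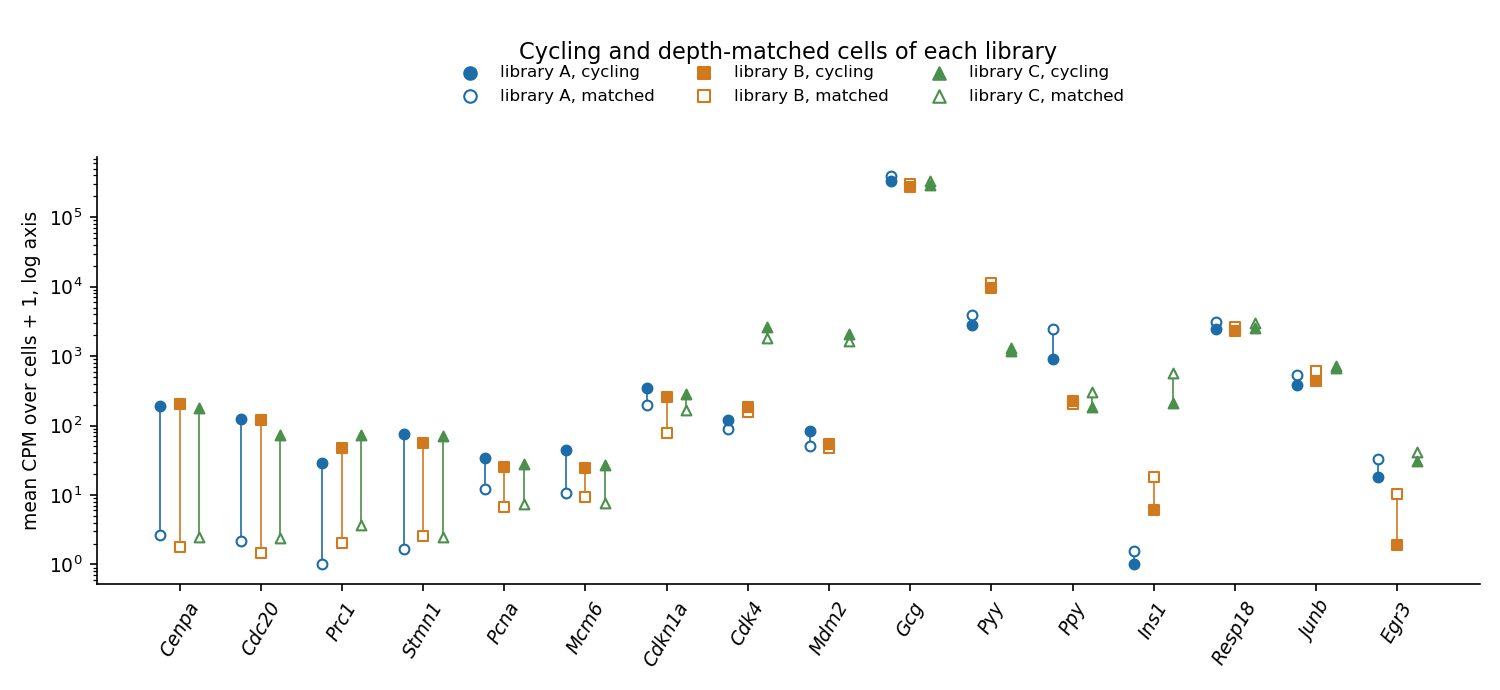
Mean CPM + 1 on a log axis for 16 genes in cycling cells (filled) and matched cells (open) of each tumor library, joined by lines. Cenpa, Cdc20, Prc1 and Stmn1 differ by more than 10 times on this scale in each library, Cdkn1a by less, and Gcg, Pyy and Resp18 are slightly lower in cycling cells. Ppy is lower in A and C only.

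The cycling cells held high levels of alpha cell transcripts. The 8 markers of alpha cells summed to 388400, 385500 and 376500 CPM in cycling cells and 443300, 416300 and 426400 in matched cells, and no alpha marker was at 0. Gcg (chr2:62474530-62483653) stood at 337170 against 387010 CPM in A, 275960 against 299940 in B and 291090 against 329470 in C. It was lower in each library, but the classes overlapped. The difference was -0.26 ± 0.06 relative to the median of all genes. Before that median is subtracted it was -0.17, which did not pass with limma (adjusted p = 0.132). edgeR on the recovered UMIs gave 2.47e-04. Among single cells with 5 or more rule genes the median was 325228 CPM in A, 269486.5 in B and 255918 in C, against 389213.5, 292210.5 and 327117.5 in cells with none. The alpha cell factor Irx2 (0.04) did not pass. Of 22 identity genes 1 rose (4.55%, beside 6.72% of all genes) and 0 fell. It was Insm1, an endocrine zinc finger factor (0.52, adjusted p = 3.76e-03). Its adjusted p was 0.177 with the class taken after thinning and 0.301 with DESeq2.

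Of 12 peptide hormones 3 fell and 0 rose, with a median of -0.32, and 0.387% of all genes fell. Pyy, peptide YY, stood at 2805 against 3867 CPM in A, 9531 against 11121 in B and 1184 against 1328 in C (-0.38 ± 0.07, adjusted p = 0.0171), and the call was lost without C (0.142) and with 1 matched cell per member (0.158). Ins1, an insulin gene, stood at 0 against 0.549 CPM in A, 5.10 against 16.9 in B and 213 against 571 in C, so that most of its transcripts were in C. Its difference of -1.30 ± 0.22 (adjusted p = 2.54e-03) was lost without C (0.224) and with 1 matched cell per member (0.294). Ppy, pancreatic polypeptide, was lower in A (917 against 2478 CPM) and C (184 against 303) but not in B (226 against 204). Of 32 genes on the granule and processing list 4 fell and 0 rose, with a median of -0.17. Pcsk1n (-0.47), Scg5 (-0.38) and Resp18 (-0.34) fell. So did G6pc2 (-0.96), which is also on the beta marker list and is not itself a granule or processing gene. The calls of G6pc2 and Scg5 were lost without C, and that of G6pc2 also without B. Pcsk1n, an inhibitor of a prohormone convertase, stood at 1848, 1733 and 2797 CPM against 2744, 2215 and 3199. With 8 hormone transcripts left out of the cell totals, 74 genes in all fell.

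Markers of beta and PP cells, lists that contain Ins1, Pyy and Ppy themselves, were measured beside these hormones. The 8 beta markers summed to 5.02 against 7.28 CPM in A, 259 against 135.6 in B and 2153 against 3954 in C, so that they were higher in cycling cells of B, with Ins1, Ins2, Mafa, Nkx6-1 and Ucn3 at 0 in cycling cells of A and Mafa and Ucn3 at 0 in those of C. The 4 PP markers summed to 3756 against 6388, 9791 against 11360 and 1402 against 1659. Within cluster 2 of C, Ins1 was at 117 CPM in cells with 3 or more rule genes and 233 in cells with none, and Pyy at 564.5 and 811. Their part in the hormone result was not tested. The 9 macrophage markers summed to 217 against 230.3, 61.5 against 68.45 and 507.5 against 247, with Lyz2 at 0 in cycling cells of A and B. H2-Aa, a class II antigen presentation gene of myeloid and B cells, rose by 0.86 (adjusted p = 0.036), with 25.8, 5.29 and 89.0 CPM against 10.9, 5.09 and 27.7. The part of macrophage transcripts in it was not tested, and the call was lost with TMM (0.0649) and without C. Endothelial markers summed to 49.85 against 39.4, 7.97 against 4.16 and 54.7 against 65.5 CPM. Stellate and fibroblast markers were under 40 CPM in each group of cells. Acinar markers were at 192 against 149 in C and under 26 in A and B, and ductal markers at 338 against 403, 905 against 797 and 459.5 against 581. Delta markers summed to 1538 against 897, 1966 against 1784 and 1206 against 1338, and markers of T, B and NK cells to 69.3 against 78.9, 81.2 against 71.95 and 141 against 112. Hemoglobin and other red cell markers were at 223 against 395 CPM in C and under 31 in A and B.

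Of 23 immediate early genes, which respond within minutes to signals and to handling of tissue, 4 fell and 0 rose. Their median was -0.37, and 0.387% of all genes fell. Fosb, an AP-1 subunit, stood at 483, 352 and 518 CPM against 666, 600.4 and 588, without overlap (-0.56 ± 0.09, adjusted p = 6.00e-03). Egr3 stood at 17.3, 0.906 and 29.7 CPM against 32.4, 9.51 and 40.9 (-1.35 ± 0.30, adjusted p = 0.0192). Egr2 (-1.01) and Junb (-0.45) also fell, while Fos (-0.21) and Jun (-0.14) did not pass. The Egr2 call was lost without A (0.0576), with matching on depth and cluster (0.0571), with no filter (0.066) and with DESeq2 (0.0917). TMM called 9 of the list lower.

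Other genes that fell by rule were Gpr119, a lipid receptor of islet cells, at 35.5, 52.2 and 72.9 CPM against 70.0, 84.8 and 108.9 (-0.83 ± 0.12, adjusted p = 1.01e-03). Camk2d (-0.86), Folr1 (-0.82), Unc45a (-0.76), Kcnma1 (-0.76), Tmem184a (-0.73), Mvp (-0.71), Kif12 (-0.61) and Fam213b (-0.60) followed. All 8 calls were lost without B, and all but that of Kcnma1 also without C.

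Of 20 measured amino acid transporters 0 passed with limma in either direction, with 3 higher and 1 lower at an unadjusted p under 0.05, while edgeR and TMM each called 1 lower and DESeq2 0. Slc38a5, the glutamine transporter of proliferating alpha cells, stood at 1476 against 1036 CPM in A, 2014 against 1805 in B and 1617 against 1713 in C (0.10 ± 0.09, adjusted p = 0.244). Among ATF4 targets and tRNA synthetases 2 of 21 rose (9.52%, near the 6.72% of all genes). These were Psat1 of serine synthesis (1.15, adjusted p = 7.53e-04) and Vars, the valyl-tRNA synthetase (0.63). Psat1 stood at 26.1, 26.1 and 16.7 CPM against 11.4, 10.0 and 6.12, without overlap.

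Of 75 nuclear genes of oxidative phosphorylation 15 rose (20%, beside 6.72% of all genes), with a median of 0.09. The counts were 2 with TMM and 0 with edgeR and DESeq2 (35 at an unadjusted p under 0.05 with limma). Of 83 ribosomal protein genes 1 rose, Rps27l. The unfolded protein response had 4 of 22 higher (18.2%) and 0 with TMM, edgeR or DESeq2, with Pdia6, a disulfide isomerase, at 0.28. Heat shock chaperones had 3 of 19 higher (15.8%; 0 with TMM, edgeR or DESeq2) and 1 lower, Dnajb1 at -0.58, a call lost without B or C. Glycolysis had 2 of 15 higher (13.3%), Tpi1 (0.49) and Pkm (0.32), and 1 lower, Aldoa (-0.54, at 186, 225 and 204 CPM against 239.8, 308 and 296). Without C the calls of Aldoa and Pkm were lost, and without B those of Tpi1, Pkm and Pdia6. Antigen presentation had 1 of 14 higher (7.14%, near the 6.72% of all genes), H2-Aa. Of 13 cholesterol synthesis and 12 mitochondrially encoded genes 0 passed with limma, 0 at an unadjusted p under 0.05, and 0 with TMM, edgeR or DESeq2. Of 9 neuroendocrine tumor suppressors 0 passed, with 2 higher at an unadjusted p under 0.05 and 0 with TMM, edgeR or DESeq2. Men1 was at -0.43 (adjusted p = 0.448) and Daxx at 0.30 (adjusted p = 0.273).

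Depth per cell, a rough measure of RNA content, was compared between cells called cycling and not after thinning to 5000 UMIs, so that the class does not rest on the total. The median total of cycling cells was 21890.5 against 19483 UMIs in A, 25029 against 25381 in B and 21396.5 against 18861 in C. The log2 ratio was 0.168, -0.02 and 0.182, a mean of 0.11 ± 0.11 (SD, n = 3). An exact two-sided sign-flip permutation test gave p = 0.50, and 3 libraries cannot give less than 0.25.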

How the data were processed

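The 3 tumor libraries (Chromium 3' version 2) were read from 1 table, and the 2 islet tables were used only for the 11 rule genes. The deposited values are a signal, read here as UMIs of a gene over the total of the cell, times a constant. The constants, 12219 in tumors and 9936 in islets, were found from the values and are not given in the labels. The deposited totals per cell are counts. The submitters' processing notes list CASAVA 1.8, bcl2fastq 2.17, GSNAP and GRCm38 without saying what each did. Undoing the division gave whole UMIs for 100.0% of values within 0.01. Levels are CPM, the recovered UMIs of a gene over the deposited exonic total of the cell. The recovered sum of a cell was at the median 1.0275 times that total. The members and lists were chosen with earlier results of these data known.

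Doublets were called with Scrublet (expected rate 0.06). Each member was matched without replacement to the 2 cells nearest in log2 depth within its library (within 0.2). Mean CPM per library and class was log2-transformed (pseudocount 1 CPM), kept at a mean of 5 CPM or more over 6 values, and fitted with limma 3.58.1 in R 4.3.3 (library block, trended variance, Benjamini-Hochberg at 0.05). Tests are of the difference itself, not of the difference relative to the median. Both classes of a library come from the same sample, which is where the pairing comes from. The named genes were the 12 genes with the largest difference each way among those called with the same sign in each library at least 20 CPM in 1 class and no predicted symbol, up to 3 called genes of each list, and 13 fixed genes, not all of which are reported here; others in the text illustrate their list. The count tests edgeR 4.0.16 (which called 539 genes higher and 174 lower) and DESeq2 1.42.0 on recovered UMIs were alternatives. On simulated data of 10080 genes with a dispersion of 0.05, 32.3% of changes of log2 1 and 94.6% of log2 2 were recovered, with 4 false among 123 calls. With a dispersion of 0.01 it was 79.4% and 98.9%, with 4 false among 171.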

Additional observations from a re-analysis of the deposited data

How the results depend on the processing

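The counts are of genes higher in cycling cells, 677 with the library as a block, and of genes lower in cycling cells, 39. Without the replicate block, which ignores the pairing of classes within a library, 169 rose and 0 fell by limma (36 lower at an unadjusted p under 0.05; edgeR and DESeq2 were run with the block), and 43 of the named results lost their call. The genes that rose numbered 426 with TMM and 266 with DESeq2, and all 426 and 266 were among the 677. Leaving out 1 library gave 364 (without C) to 784 (without A). The genes that fell numbered 19 with no filter beyond any UMI, 66 without depth matching, 120 with the class taken after thinning to 5000 UMIs, 59 with 3 or more rule genes, 134 with TMM, 74 with totals without 8 hormone transcripts and 174 with edgeR. Leaving out 1 library gave 19 (without C) to 86 (without A). Of the named results 25 lost their call without C, 18 without B and 3 without A. Matching on depth and cluster kept 637 of the higher and 31 of the lower calls. The share of cycling cells at equal depth, on average 5.87% at 5000 UMIs, was 11.86% without thinning, 7.66% at 10000 UMIs and 3.80% with 3 or more rule genes, and 5.67% to 6.13% with 1 library left out. On the fitted scale, before the median of all genes is subtracted, values that changed sign, none of them called, were Slc38a5 (-0.0017 with DESeq2), Ccnd1 (-0.164 without A to 0.0459 without C) and Ccnd2 (-0.117 without C to 0.0117 without B). Causes of these shifts were not tested. With 3 libraries, changes of log2 1 or less may be missed.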

Other observations

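Outside the fixed lists some members of other families rose in cycling cells. These families were chosen after their values were seen, no test compared them with other genes, and 6.72% of all genes were called higher. The augmin complex, which nucleates microtubules inside the spindle, had 4 of 6 measured Haus genes higher and 0 lower, also with TMM: Haus5 (1.68), Haus4 (1.54), Haus3 (1.27) and Haus1 (1.06), as log2 differences relative to the median of all genes. Of 29 other dynein and kinesin genes 0 rose with limma and 1 fell, Kif12. Of 11 LSM genes 5 rose, with Lsm2 at 1.13 and Lsm3 at 1.03, of 11 Snrp genes 6 rose, and of 20 hnRNP genes 6 rose, and with TMM 5, 4 and 3 did. Their medians were 0.18, 0.35 and 0.22, and most LSM and hnRNP genes did not pass. Of 18 nucleoporin genes 5 rose, among them Nup62 (1.03) and Nup107 (0.98), and 3 with TMM. Of 46 proteasome genes 3 rose and of 8 CCT chaperonin genes 2, and with TMM 0 of either did.

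Among single genes outside the lists, 1190002F15Rik averaged 373 CPM in cycling and 16.8 in matched cells, a difference of 4.30. 2700094K13Rik averaged 244 against 50.7 CPM (2.13), the linker histone gene H1f0 286 against 90.6 (1.30) and Hint1 1188 against 751 (0.56).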
